A study of Arabidopsis thaliana with 12 samples.

Results

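Transcript levels of the genes annotated to the proteasome complex were examined in flowers of Arabidopsis thaliana, in an XBAT31 mutant and in the wild type, after heat and without it. The genes are all rows of the deposited expression table that carry the Gene Ontology term for the proteasome complex, which gave 55 of the 27715 genes in the table. XBAT31 encodes a RING-type E3 ubiquitin ligase with ankyrin repeats, and E3 ligases attach ubiquitin to proteins. Flowers of stages 1 to 12 were taken from the mutant at 38 °C, the mutant at 22 °C, the wild type at 38 °C and the wild type at 22 °C, with 3 hours given for the temperature and 3 libraries of 9 flowers in each group. The sources used here give neither the nature of the mutant allele nor the accession of the wild type. The libraries are labelled as biological replicates, but nothing states whether they came from separate plants, so the p-values reflect no more than the spread among these libraries, which may be technical.

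The proteasome is the protease that degrades proteins tagged with ubiquitin. A barrel of alpha and beta rings forms the core particle, and the protein is cut inside it by beta subunits. A regulatory particle caps the core: its base carries a ring of ATPases that unfold the protein and feed it into the core, with non-ATPase subunits that bind ubiquitin or the carriers of ubiquitinated proteins, and its lid removes the ubiquitin chain. In plants many subunits are encoded by a pair of closely related genes, and proteasome activity is needed to clear proteins damaged by heat and to turn over the repressors of hormone signalling.

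Of the 55 genes, 52 code for a subunit of the complex and together cover 32 subunits in the deposited orthology annotation: 12 genes for the alpha ring, 11 for the beta ring, 10 for the ATPases of the base, 5 for its other subunits and 14 for the lid. The other 3 are UBP2, a ubiquitin-specific protease, and AXR3 and IAA7, repressors of auxin response that are themselves degraded by the proteasome. A further 4 genes for subunits or subunit-like proteins lie outside the annotation term, among them RPN13, a ubiquitin receptor of the base, and are given separately. All 55 genes passed the filter on low counts, which kept 23585 genes. The genes were chosen by annotation, but the set was selected on its fold changes with heat in the wild type, so that comparison is described by its values, with counts of calls on which nothing rests. The comparison of heat in the mutant carries the test, as its own libraries took no part in that selection on fold changes. The wild-type libraries still enter its fit through the filter, the scaling and the shared estimate of the spread. Members and lists were also chosen with earlier results of these data known. Changes are log2 fold changes from edgeR's quasi-likelihood test on the deposited estimated counts with their standard error (SE), p-values are adjusted over all genes tested by the Benjamini-Hochberg method, and a gene was called at an adjusted p below 0.05. Levels are FPKM, fragment numbers set relative to the length of the transcript and the depth of the library.

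The libraries held between 44983198 and 63088433 estimated counts. XBAT31 itself was lower in the mutant at both temperatures, with 54.2, 47.5 and 49.4 FPKM in heated mutant flowers and 54.3, 55.7 and 45.3 FPKM in unheated mutant flowers, against 109, 110.1 and 107 FPKM in heated and 95.3, 96.8 and 96.6 FPKM in unheated wild-type flowers. The chaperone HSP101 and the heat shock factor HSFA2 were higher in every library labelled 38 °C than in every library of the same genotype labelled 22 °C. The 6 flower identity genes summed to between 428 and 493 FPKM per library. Of the markers of other tissue content, the 6 genes of maturing pollen summed to between 315 and 1882 FPKM per library and the 6 genes of green tissue to between 1934 and 6045 FPKM, and none of the flower, pollen or green tissue markers was at 0 in any library. The lowest pollen sums were those of replicate 1 of the heated mutant and replicate 2 of the heated wild type, and replicate 2 of the unheated mutant had the lowest green tissue sum.

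Genes of every part of the proteasome fell with heat in the mutant. Of the 52 subunit genes, 0 were called higher, 35 were called lower and 17 did not pass, where 11.3% of all genes tested were called higher and 13.6% were called lower. With UBP2, AXR3 and IAA7 the count over all 55 genes was 1 higher and 35 lower. The median log2 fold change of the subunit genes was -0.32, against -0.00 over all genes tested, and individual genes lay between -0.62 and 0.03. In FPKM, 30 of the 52 genes were lower in all 3 heated libraries than in all 3 unheated ones and 0 were higher in all 3, where 14.5% and 26.1% of all genes tested did so. DESeq2 called 0 subunit genes higher and 36 lower, where it called 16.6% and 16.1% of all genes, and limma on FPKM called 0 higher and 24 lower, where it called 19.1% and 10.3%. With only the mutant libraries in the edgeR fit, 24 of the 55 genes were called lower and 1 higher, where 8.86% and 7.58% of all genes were. In bulk flowers, less RNA per cell cannot be told apart from fewer cells that carry it.

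Heat in the wild type is the comparison on which the set was selected, so its counts describe that selection and are no test of it. There 0 subunit genes were past the threshold as higher and 40 as lower, where 14.3% and 16.4% of all genes tested were. The median log2 fold change was -0.34, against -0.05 over all genes, and 38 of the 52 genes were lower in all 3 heated libraries in FPKM while 4 (PBC2, RPN1B, AT1G04810 and ATS9) were higher in all 3, where 19.7% and 27% of all genes tested did so. Without wild-type replicate 3 at 22 °C, 26 of the 55 genes were past the threshold as lower with heat in the wild type, where 10.7% of all genes were. Without mutant replicate 2 at 22 °C, 24 of the 55 were called lower with heat in the mutant, where 9.07% of all genes were. These were the lowest counts of the fits that left out a library.

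Both the calls and the sign of the median depended on the scaling. With libraries scaled on 10 reference genes instead of the trimmed mean of all genes, 6 subunit genes were called higher and 0 lower for heat in the mutant, where 33.6% and 2.85% of all genes were called. The median over all genes then stood at 0.33 and that of the subunit genes at 0.01. A change of scaling shifts the fold changes of all genes by about the same amount. The distance of the subunit genes from the median of all genes, -0.32 under both scalings, was therefore largely fixed in advance and is no check. The reference genes themselves were uneven, since 6 of the 10 were called lower with heat in the mutant under the main scaling, ACT2 among them (-0.65, SE 0.11, edgeR adjusted p = 0.00187). Their log2 fold changes ran from -1.81 to 0.11 with a median of -0.23. The scaling takes the mean of their log counts, on which the lowest gene weighs heavily. A fall named here is a fall relative to most other transcripts.

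**Figure D1:**
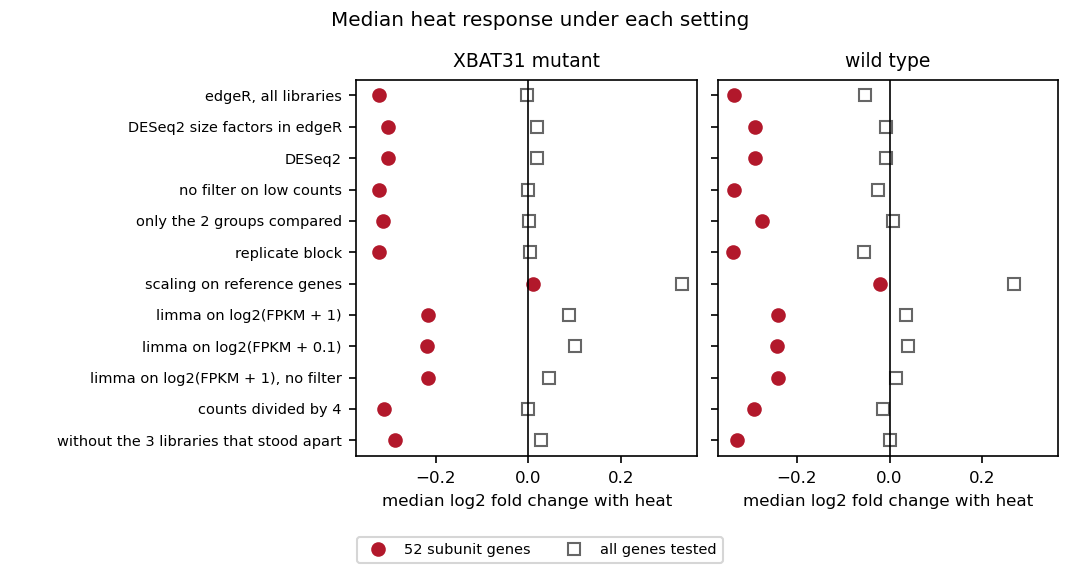
Median log2 fold change with heat (horizontal axis, 38 °C over 22 °C) of the 52 subunit genes (filled circles) and of all genes tested (open squares) under each setting (rows), for the XBAT31 mutant on the left and the wild type on the right. The subunit genes lie to the left of all genes in every row, and under scaling on reference genes both medians move to the right, to 0.01 and 0.33 in the mutant. A row that changes only the scaling shifts both medians by about the same amount, so its gap is no separate check.

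Summed over the 52 genes, the level in the mutant was 3778, 3338 and 3567 FPKM at 38 °C and 4015, 4507 and 4072 FPKM at 22 °C. The wild-type sums were 3207, 3516 and 3255 FPKM at 38 °C and 3959, 3933 and 3964 FPKM at 22 °C. The heated libraries lay below the unheated ones of the same genotype without overlap, at 84.8% of the 22 °C mean in the mutant and 84.2% in the wild type. In 3 groups the highest library was the one taken to stand apart by its marker genes, namely replicate 1 of the heated mutant, replicate 2 of the unheated mutant and replicate 2 of the heated wild type. No cut-off defined these 3 libraries. Replicate 3 of the unheated wild type was not among them, though its pollen sum was the highest of all (1882 FPKM, against 882 and 1099 in its group). The pollen markers also had lower sums with heat, at 68.5% of the 22 °C mean in the mutant and 64.3% in the wild type, with overlap in both, and the green tissue markers stood at 118% in the mutant and 83.1% in the wild type, also with overlap. The median log2 fold change of the 6 pollen genes was -0.54 in the mutant, where 0 of them were called, and -0.90 in the wild type. The part of pollen and green tissue content in the levels of the subunit genes was not tested. Without the 3 libraries taken to stand apart, 0 subunit genes were called higher and 28 lower with heat in the mutant, where 8.46% and 8.16% of all genes were, with a median of -0.29. That fit keeps replicate 3 of the unheated wild type.

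**Figure D2:**
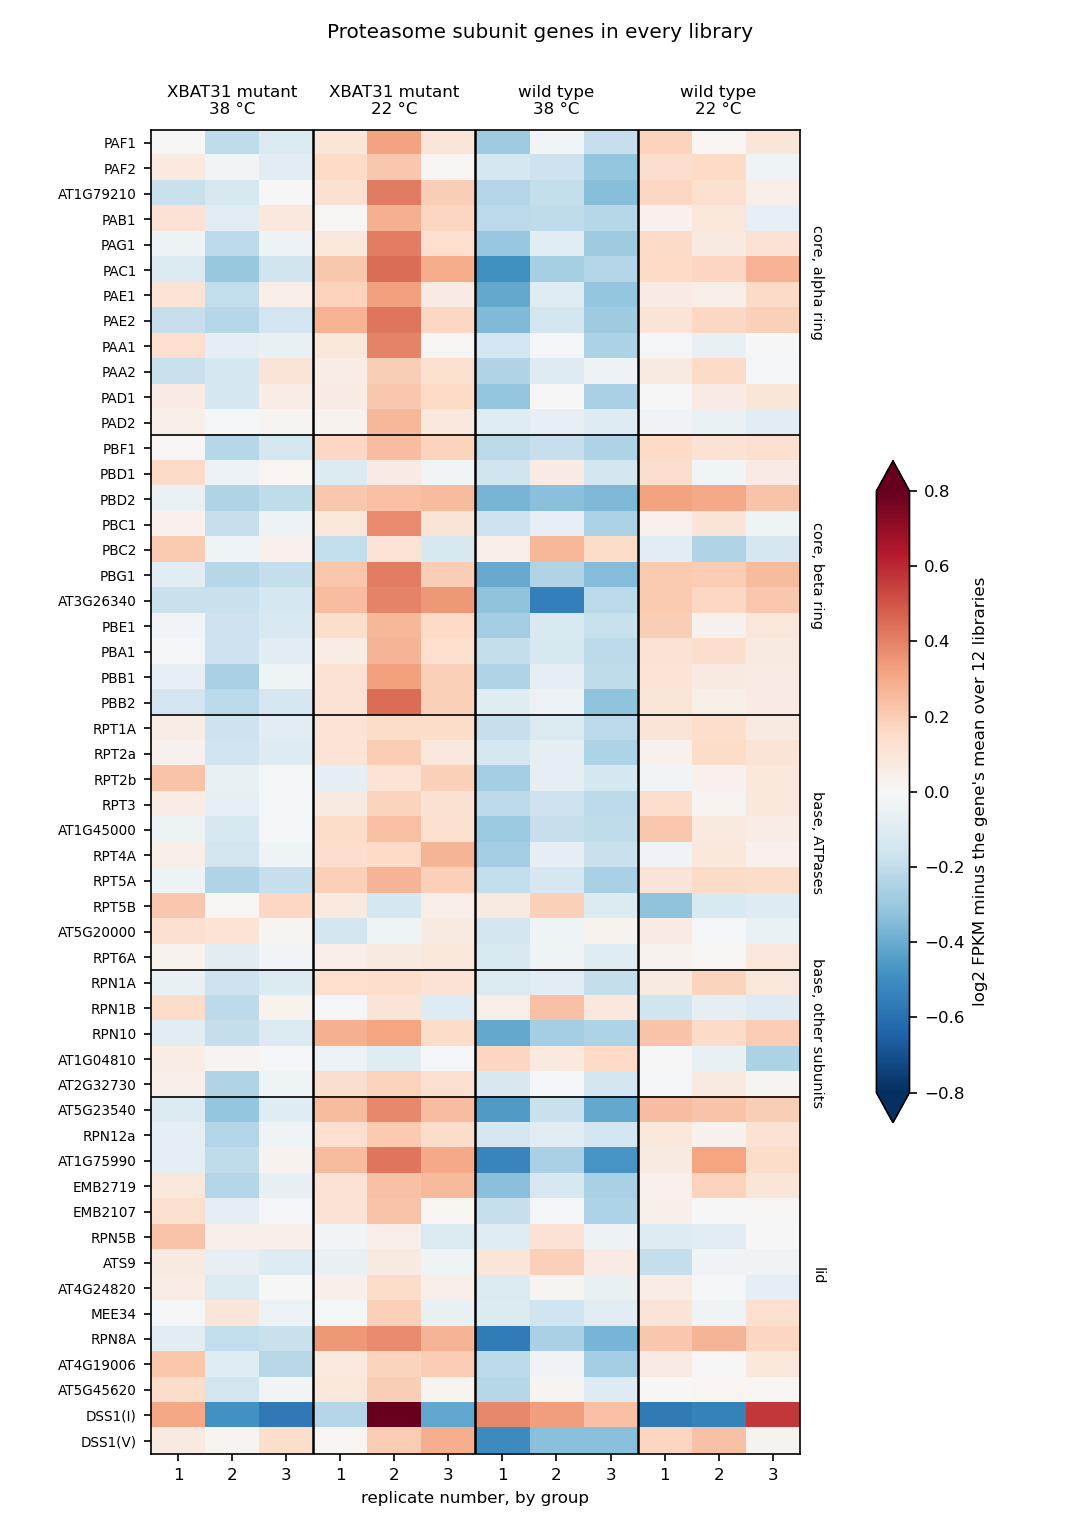
Level of each of the 52 subunit genes (rows, ordered by part of the complex) in each of the 12 libraries (columns, 3 replicates per group), as log2 FPKM minus the gene's mean over all libraries. The heated columns are mostly blue (low) and the unheated columns mostly red (high), with mutant replicate 2 at 22 °C the reddest column and DSS1(I) the row that varies most within groups.

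In all 5 parts of the complex the summed level of the members was lower after heat, with no overlap between the libraries of the same genotype. The alpha ring summed to 983, 883 and 965 FPKM in heated mutant flowers, against 1066, 1248 and 1079.7 FPKM in unheated mutant flowers, which is 83.4% of the unheated mean. The same measure stood at 82.7% for the beta ring, 88.6% for the ATPases, 85.5% for the other base subunits and 85.7% for the lid. In the wild type it was 82.0% for the alpha ring, 81.8% for the beta ring, 84.7% for the ATPases, 87.8% for the other base subunits and 87.8% for the lid. These sums leave out the 4 genes outside the annotation term. Among those, AT1G53780, listed as the second RPT1 gene, was called higher with heat in the mutant. With AT1G53780 added, the ATPase sums of heated and unheated mutant libraries overlap. No test of a difference between the parts was run.

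**Figure D3:**
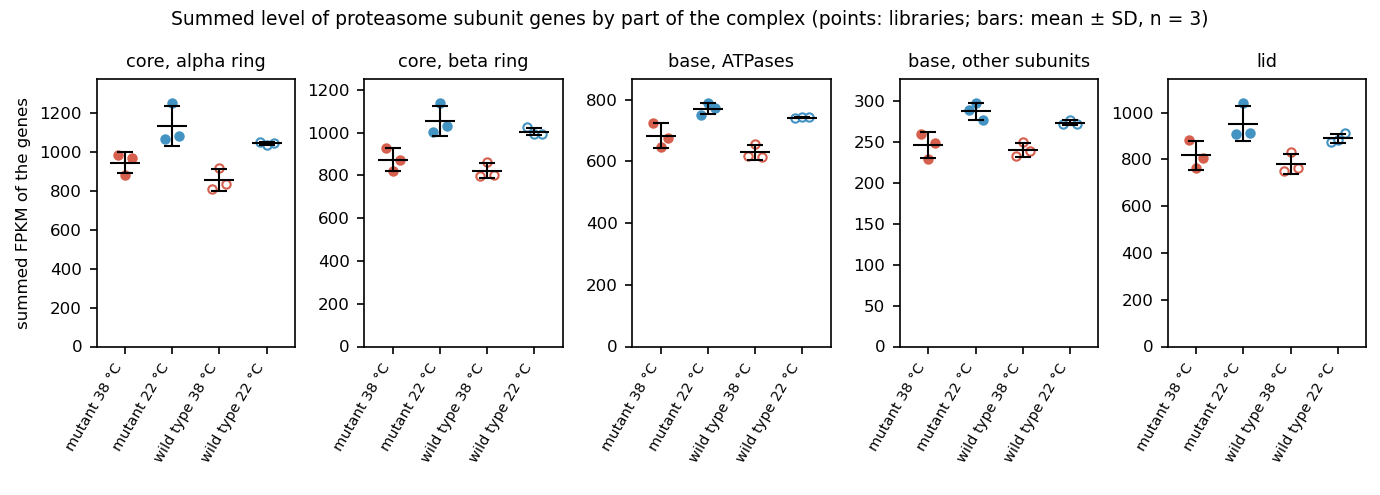
Summed FPKM of the subunit genes of each part of the proteasome (panels), by group (horizontal axis), with a point for each library and bars for the group mean ± SD (n = 3). In each panel the 3 heated libraries of a genotype lie below its 3 unheated ones, as for the alpha ring with 983, 883 and 965 FPKM at 38 °C and 1066, 1248 and 1079.7 FPKM at 22 °C in the mutant. The panel for the ATPases leaves out AT1G53780.

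The sequence upstream of the genes was searched for TGGGC, the core of an element that NAC053 and NAC078, transcription factors that raise proteasome genes under proteotoxic stress in Arabidopsis, are known to bind. In the 250 bases before each gene's start in the RefSeq annotation (TAIR10.1), TGGGC or its reverse complement GCCCA was found for 24 of the 52 subunit genes (46.2%), and for 22.7% of the 27443 protein-coding genes of the nuclear chromosomes. At least 2 copies were found for 18 subunit genes (34.6%), against 12.6% of all genes, where a forward copy that overlaps a reverse one counts as 2. The share was 45.7% of the 35 genes called lower with heat in the mutant and 47.1% of the 17 that did not pass. A heat shock element, GAANNTTC or TTCNNGAA, was found for 7 of the 52 (13.5%), against 16.1% of all genes. These shares are descriptions of letters in a window, not of binding. The background takes in protein-coding genes whatever their expression, and no set of genes at a level similar to that of the subunit genes was searched. The windows printed here are those of the gene with the largest fall in the mutant (PAC1), of AT5G23540, the gene for the lid subunit RPN11, which fell (log2 fold change -0.57) and has no copy, and of a pair of which RPN1A was called and RPN1B was not. They run 5′ to 3′ along the gene's strand up to the base before its start, in lower case, with TGGGC and GCCCA in capitals.
PAC1 (chr3:7794263-7794512, minus strand): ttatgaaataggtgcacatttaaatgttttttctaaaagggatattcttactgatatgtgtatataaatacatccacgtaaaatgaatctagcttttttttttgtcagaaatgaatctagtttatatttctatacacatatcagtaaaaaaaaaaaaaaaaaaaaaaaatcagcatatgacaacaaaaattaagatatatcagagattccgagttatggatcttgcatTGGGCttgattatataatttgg
AT5G23540 (chr5:7937380-7937629, plus strand): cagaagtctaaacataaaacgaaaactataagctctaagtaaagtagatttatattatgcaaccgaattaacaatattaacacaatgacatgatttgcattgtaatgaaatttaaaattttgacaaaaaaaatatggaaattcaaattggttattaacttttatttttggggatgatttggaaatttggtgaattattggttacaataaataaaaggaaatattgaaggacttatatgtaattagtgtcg
RPN1A (chr2:8858712-8858961, plus strand): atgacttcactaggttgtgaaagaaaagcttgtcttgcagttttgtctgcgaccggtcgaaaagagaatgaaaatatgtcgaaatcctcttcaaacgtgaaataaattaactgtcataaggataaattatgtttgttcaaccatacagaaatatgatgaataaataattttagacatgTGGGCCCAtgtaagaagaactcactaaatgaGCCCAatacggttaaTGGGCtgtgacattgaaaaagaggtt
RPN1B (chr4:14072583-14072832, minus strand): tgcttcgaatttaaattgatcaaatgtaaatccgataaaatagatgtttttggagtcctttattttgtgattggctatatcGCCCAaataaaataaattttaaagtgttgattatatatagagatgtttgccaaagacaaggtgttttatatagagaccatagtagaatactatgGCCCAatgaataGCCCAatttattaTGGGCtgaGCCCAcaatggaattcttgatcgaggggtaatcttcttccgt
AT5G23540 holds 0 copies within its window, while RPN1A holds 4, of which a forward and a reverse copy overlap, and RPN1B holds 5. PAC1 holds 1 copy.

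The alpha ring, which gates entry to the core, had 10 of its 12 genes called lower with heat in the mutant and 0 higher, with a median of -0.31. The largest fall belonged to PAC1 (AT3G22110, chromosome 3, positions 7792638 to 7794165, minus strand), the only gene of its subunit under the annotation term. PAC1 had 103, 90.4 and 99.99 FPKM in heated mutant flowers and 129, 152 and 137 FPKM in unheated mutant flowers (log2 fold change -0.62, SE 0.09, adjusted p = 8.35e-04 by edgeR). All heated mutant libraries lay below all unheated ones, with mutant replicate 2 at 22 °C the highest of the 12. Wild-type flowers had 79.2, 92.8 and 94.9 FPKM at 38 °C and 124, 126 and 136 FPKM at 22 °C (-0.63, SE 0.09).

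At the other end of the alpha ring was PAD2, with 47.0, 45.1 and 46.1 FPKM in heated mutant flowers and 46.3, 54.7 and 48.2 FPKM in unheated mutant flowers. These FPKM values overlapped between the groups, and the call rests on the scaled counts (log2 fold change -0.22, SE 0.06, adjusted p = 0.0293 by edgeR). It was lost in 5 of the 12 fits that left out a library (adjusted p up to 0.193), namely each without a heated mutant library, the one without mutant replicate 2 at 22 °C and the one without wild-type replicate 3 at 22 °C. PAA1 and PAD1, the genes of the ring that did not pass, had log2 fold changes of -0.28 and -0.26, so that all 12 genes had a negative value. PAE2 (-0.59, SE 0.08) and AT1G79210, the partner of PAB1 (-0.46, SE 0.08), had the lowest values after PAC1.

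The beta ring, which holds the sites that cut proteins, had 9 of its 11 genes called lower and 0 higher with heat in the mutant, with a median of -0.42. The lowest value belonged to AT3G26340 (chromosome 3, positions 9650417 to 9652897, minus strand), which the deposited orthology assigns with PBE1 to PBE, the subunit with chymotrypsin-like activity. AT3G26340 had 28.3, 28.2 and 29.0 FPKM in heated mutant flowers and 37.9, 42.1 and 40.5 FPKM in unheated mutant flowers (log2 fold change -0.60, SE 0.08, adjusted p = 6.91e-04 by edgeR). The groups did not overlap. The other catalytic subunits also fell: PBA1, with caspase-like activity, at -0.35 (SE 0.07), and PBB1 and PBB2, with trypsin-like activity, at -0.44 (SE 0.08) and -0.53 (SE 0.09). PBG1, a structural subunit of the ring with no second gene among the 55, had -0.55 (SE 0.07, edgeR adjusted p = 5.49e-04), and its mean level in the mutant was 73.4% of that at 22 °C.

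PBC2 (AT1G77440, chromosome 1, positions 29096020 to 29098450, plus strand) was the gene of the beta ring that moved least in the mutant, with 82.2, 69.5 and 72.8 FPKM after heat and 62.0, 76.8 and 65.0 FPKM without it (log2 fold change 0.03, SE 0.09, adjusted p = 0.830 by edgeR). These groups overlapped, while in the wild type all 3 heated libraries, with 73.8, 85.4 and 78.6 FPKM, lay above the 3 unheated ones, with 66.9, 60.2 and 64.6 FPKM. Its partner PBC1 was called lower in the mutant (-0.36, SE 0.09, edgeR adjusted p = 0.0107). The summed level of the subunit PBC in the wild type was 103% of that at 22 °C, and in the mutant 94.6%.

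Of the ATPases of the base, 7 of 10 genes were called lower and 0 higher with heat in the mutant, with a median of -0.27. The genes RPT1A, RPT3, RPT4A and AT1G45000, the second RPT4 gene, lay between -0.34 and -0.24 and were called. Those not called, RPT2b, RPT5B and AT5G20000, the second RPT6 gene, each had a partner that was called. Summed over both genes, RPT6 kept 97.1% of its 22 °C level in the mutant and 92.9% in the wild type. This was the highest of the 6 ATPases in both genotypes when only members under the annotation term are summed. AT1G53780, listed as the second RPT1 gene, lies outside that term and was called higher with heat in the mutant.

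RPT5A (AT3G05530, chromosome 3, positions 1603400 to 1606231, plus strand) and RPT5B (AT1G09100, chromosome 1, positions 2936528 to 2939326, minus strand) were the extremes of the ring. RPT5A had 101, 88.3 and 91.6 FPKM in heated mutant flowers and 119, 126 and 119 FPKM in unheated mutant flowers (log2 fold change -0.48, SE 0.07, adjusted p = 8.08e-04 by edgeR), and RPT5B had 29.7, 25.9 and 28.7 FPKM in heated and 27.04, 23.2 and 26.6 FPKM in unheated mutant flowers (log2 fold change 0.03, SE 0.10, adjusted p = 0.879 by edgeR). The libraries of RPT5A did not overlap and those of RPT5B did. The share of RPT5A in the summed level of the pair was 76.9% in the mutant at 38 °C and 82.6% in the mutant at 22 °C, against 77.4% in the wild type at 38 °C and 83.5% in the wild type at 22 °C. Coding sequences of the pair were 80.7% identical.

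The other base subunits had 3 of 5 genes called lower and 0 higher. RPN10 (AT4G38630, chromosome 4, positions 18057130 to 18059540, minus strand), a ubiquitin receptor, had 82.2, 76.3 and 80.6 FPKM in heated mutant flowers and 106, 108 and 96.3 FPKM in unheated mutant flowers (log2 fold change -0.48, SE 0.07, adjusted p = 8.67e-04 by edgeR). No heated library reached an unheated one. The smallest change was that of AT1G04810, one of the genes for the scaffold RPN2, with 18.7, 18.2 and 17.8 FPKM in heated mutant flowers and 17.4, 16.8 and 17.8 FPKM in unheated mutant flowers (log2 fold change -0.03, SE 0.07, adjusted p = 0.765 by edgeR), and these groups overlapped. The sign of its log2 fold change turned positive under scaling on reference genes and under limma on FPKM. Its partner AT2G32730, which made up 79.96% of the pair in the wild type at 22 °C, was called lower (-0.33, SE 0.07).

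RPN1, the scaffold to which carriers of ubiquitinated proteins dock, showed the same split. RPN1A had 47.7, 44.2 and 46.0 FPKM in heated mutant flowers and 54.4, 54.7 and 53.8 FPKM in unheated mutant flowers (log2 fold change -0.35, SE 0.06, adjusted p = 0.00245 by edgeR). RPN1B had 44.3, 34.6 and 40.7 FPKM in heated mutant flowers and 39.7, 43.0 and 37.3 FPKM in unheated mutant flowers (log2 fold change -0.11, SE 0.09, adjusted p = 0.392 by edgeR). RPN1A was lower in every heated library and RPN1B overlapped. In the wild type RPN1B was higher in every heated library, with 41.2, 47.0 and 42.6 FPKM at 38 °C and 35.8, 37.9 and 37.2 FPKM at 22 °C, and the summed level of RPN1 was 98.1% of that at 22 °C, against 91.0% in the mutant.

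The lid had the smallest share of called genes, with 6 of 14 lower and 0 higher with heat in the mutant and a median of -0.25. RPN8A (AT5G05780, chromosome 5, positions 1735725 to 1738700, plus strand) fell furthest, with 62.8, 58.4 and 59.3 FPKM in heated mutant flowers and 85.2, 87.0 and 80.7 FPKM in unheated mutant flowers (log2 fold change -0.59, SE 0.08, adjusted p = 4.56e-04 by edgeR). AT5G23540 (chromosome 5, positions 7937669 to 7939575, plus strand), the gene for the deubiquitinase RPN11, with which RPN8 pairs in the lid, had 89.2, 77.5 and 90.0 FPKM in heated mutant flowers and 115, 126 and 114 FPKM in unheated mutant flowers (-0.57, SE 0.08, edgeR adjusted p = 7.72e-04). Neither gene overlapped between the groups, and RPN11, encoded by a single member, kept 72.4% of its 22 °C level in the mutant and 67.5% in the wild type. The remaining calls were RPN12a (-0.38), AT4G24820, the gene for RPN7 (-0.20), and the genes for RPN3, EMB2719 (-0.37) and AT1G75990 (-0.52).

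RPN5B stood at the other end of the lid, with 19.9, 17.5 and 17.5 FPKM in heated mutant flowers and 16.8, 17.7 and 15.7 FPKM in unheated mutant flowers (log2 fold change 0.02, SE 0.08, adjusted p = 0.864 by edgeR). Its groups overlapped, and its sign turned negative without mutant replicate 3 at 22 °C or mutant replicate 1 at 38 °C. ATS9, the gene for RPN6, which clamps the lid to the core, did not pass (log2 fold change -0.13, SE 0.08, adjusted p = 0.247 by edgeR). It was the only gene without a partner among the 55 that was not called lower in the mutant, while the other 11 of 12 such genes were. ATS9 had, in the wild type, 103, 110.0 and 101 FPKM at 38 °C and 84.4, 94.4 and 94.4 FPKM at 22 °C. Its mean was 115% of that at 22 °C, the highest of the 32 subunits in sums over members.

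**Figure D4:**
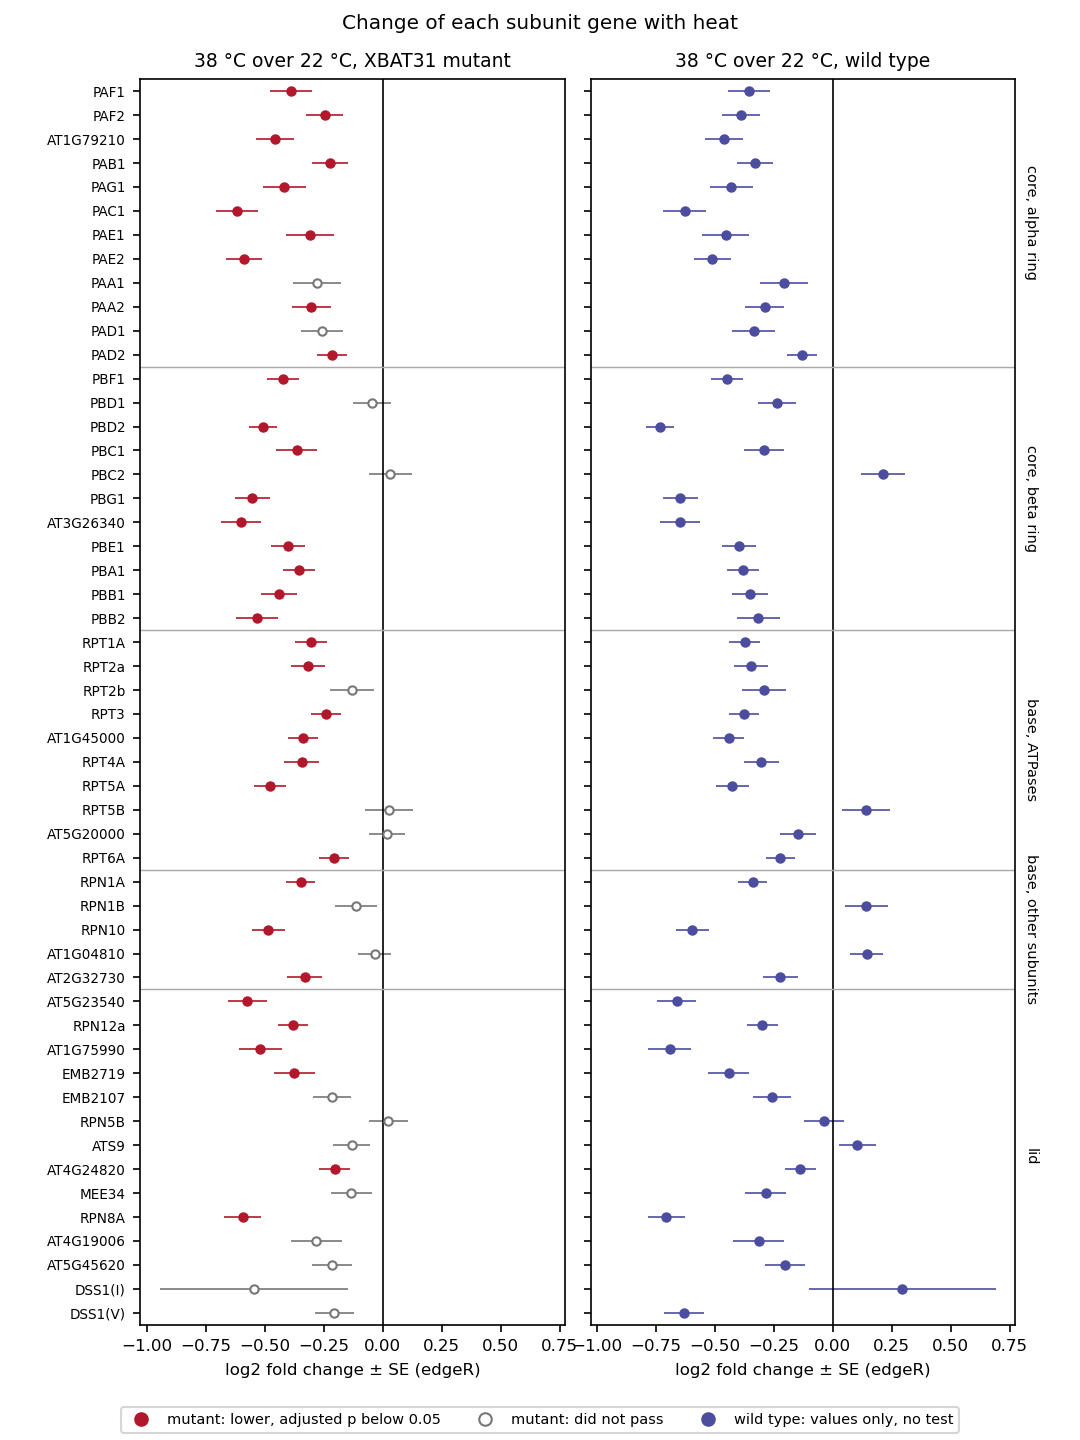
Log2 fold change with heat ± SE (horizontal axis, edgeR, 38 °C over 22 °C) of each of the 52 subunit genes (rows), for the XBAT31 mutant on the left, where red points passed an adjusted p of 0.05, and for the wild type on the right, drawn without a test. In the mutant 35 genes lie to the left of 0 as red points and 48 of 52 are negative.

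Of the 32 subunits, 20 were encoded by a pair of members and 12 by a single one. Both genes were called lower with heat in the mutant in 7 pairs, 1 of the genes in 10 pairs and neither in 3. No test of the difference within a pair was run, so a split in calls need not be a difference in response. PAD1, not called, had -0.26 and its called partner PAD2 -0.22, while PAA1, not called, had -0.28 and its called partner PAA2 -0.30. Coding sequences within a pair were between 80.3% and 94.4% identical, and how reads shared by both genes were counted is not stated, so a difference within a pair is less certain than its sum. The gene with the higher mean FPKM over the 12 libraries had the lower fold change in 10 of the 20 pairs in the mutant and in 12 of 20 in the wild type.

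By smallest p, the split pairs were PBD2 and PBD1, RPN8A and MEE34, RPT5A and RPT5B, and RPN1A and RPN1B. PBD2 (AT4G14800, chromosome 4, positions 8500266 to 8502240, plus strand), of the beta ring, had 60.1, 52.6 and 54.1 FPKM in heated mutant flowers and 72.2, 73.7 and 74.2 FPKM in unheated mutant flowers (log2 fold change -0.51, SE 0.06, adjusted p = 2.83e-04 by edgeR). PBD1 had 73.7, 64.2 and 67.0 FPKM in heated mutant flowers and 61.5, 69.3 and 65.5 FPKM in unheated mutant flowers (log2 fold change -0.04, SE 0.08, adjusted p = 0.733 by edgeR). PBD2 fell without overlap and PBD1 overlapped, so that the share of PBD1 in the summed level of the pair was 55.1% in the mutant at 38 °C and 47.1% in the mutant at 22 °C. Wild-type libraries gave a PBD1 share of 56.4% at 38 °C and 47.8% at 22 °C. MEE34, the second gene for RPN8, had 18.0, 19.4 and 17.6 FPKM in heated mutant flowers and 17.9, 20.7 and 17.4 FPKM in unheated mutant flowers (log2 fold change -0.13, SE 0.09, adjusted p = 0.298 by edgeR), and these overlapped.

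**Figure D5:**
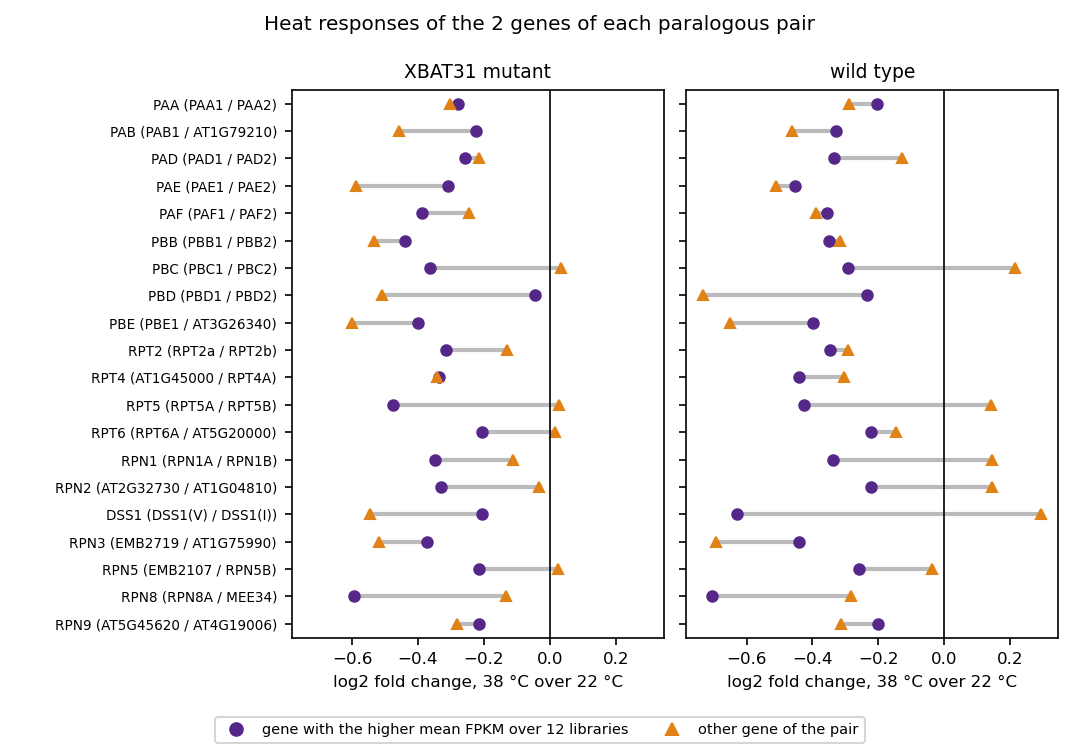
Log2 fold change with heat (horizontal axis, 38 °C over 22 °C) of both genes of the 20 subunits encoded by a pair (rows), for the XBAT31 mutant on the left and the wild type on the right. Circles are the gene with the higher mean FPKM over the 12 libraries and triangles its partner, and the bar between them in the mutant is long for PBD, RPT5 and RPN8 and short for PAA and RPT4.

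Summed over the members of each subunit, the level at 38 °C in the mutant ran from 70.1% of that at 22 °C for PAC to 98.2% for RPN6. The median was 84.9%. In these sums all 32 subunits had a mean below that at 22 °C, 8 of them below 80%. They leave out AT1G53780, listed as the second RPT1 gene, which was called higher with heat in the mutant while RPT1A was called lower. With AT1G53780 added, the mutant mean of RPT1 was higher at 38 °C than at 22 °C. In the wild type the range was 67.5% for RPN11 to 115% for RPN6, with a median of 82.7%, and 30 of 32 subunits were below the 22 °C mean. The subunits PAC, RPN11, PBG, RPN8, RPN10, PBE and PAE were below 80% in both genotypes.

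No subunit gene was called between the mutant and the wild type at 22 °C. Of the 52 genes, 0 were called higher and 0 lower in the mutant by edgeR, DESeq2 and limma, where edgeR called 0.161% and 0.0297% of all genes, DESeq2 0.636% and 0.403%, and limma 0.235% and 0.0336%, and 1 gene had an unadjusted p below 0.05. The median log2 fold change, mutant over wild type, was 0.05, against -0.01 over all genes tested, and 45 of the 52 genes had a positive value. This small shift of the set was not tested. In FPKM, 12 genes were higher in all 3 mutant libraries while 0 were lower in all 3, where 7.87% and 4.63% of all genes did so. The summed level was 4198 ± 269 FPKM in the mutant and 3952 ± 16.7 FPKM in the wild type (SD, n = 3 each), and the mutant value includes replicate 2, the highest library of the 12.

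At 38 °C, 1 subunit gene was called higher in the mutant and 0 lower, where 4.36% and 5.26% of all genes were called. This comparison shares its wild-type libraries with the one the genes were proposed from. DSS1(V) (AT5G45010, chromosome 5, positions 18167244 to 18168374, minus strand), a small acidic protein of the lid, had 61.3, 59.1 and 64.2 FPKM in the mutant and 41.0, 46.2 and 46.3 FPKM in the wild type when heated (log2 fold change 0.43, SE 0.08, adjusted p = 0.00890 by edgeR). The groups did not overlap. At 22 °C it had 59.0, 67.2 and 71.4 FPKM in the mutant and 65.6, 68.6 and 59.4 FPKM in the wild type, which overlapped (0.00, SE 0.08). The call was kept without each library in turn (adjusted p up to 0.0482) and lost under scaling on reference genes (adjusted p = 0.0624). DESeq2 called 3 subunit genes higher (PAB1, AT1G75990 and DSS1(V)) and 1 lower (AT1G04810) at 38 °C, where it called 7.6% and 9.48% of all genes, and limma called 1 higher and 0 lower, where it called 6.24% and 5.31%. In FPKM, 15 subunit genes were higher in all 3 mutant libraries and 1 was lower in all 3, where 17.4% and 12.3% of all genes did so. The median log2 fold change of the subunit genes was 0.07, against -0.00 over all genes tested, and 42 of the 52 had a positive value. This shift was not tested either.

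The test of whether heat acted differently in the mutant and the wild type (log2 fold change in the mutant minus that in the wild type) called 0 subunit genes with edgeR, which called 0.407% of all genes higher and 1.18% lower. It uses the wild-type libraries from which the genes were proposed. There were 2 subunit genes with an unadjusted p below 0.05, limma called 0, where it called 0.484% and 1.14% of all genes, and DESeq2, where it called 2.73% and 5.1%, called DSS1(V) higher (0.43 by edgeR, SE 0.12, adjusted p = 0.1004). DSS1(V) had a log2 fold change with heat of -0.20 in the mutant and -0.63 in the wild type. The median difference over the 52 genes was 0.02, against 0.03 over all genes.

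DSS1(I), the second gene for this subunit, gave the most negative difference (-0.84) with the widest error (SE 0.56). It had 68.5, 39.4 and 37.2 FPKM in heated mutant flowers, 47.0, 109 and 41.4 FPKM in unheated mutant flowers, 72.0, 69.6 and 65.4 FPKM in the wild type at 38 °C and 37.3, 38.0 and 81.7 FPKM in the wild type at 22 °C. Except in the heated wild type, a single library of each group was high. The gene overlaps a tubulin gene on the opposite strand by 126 bases. It is 1 of 8 members that overlap another gene, 7 of them on the opposite strand. Whether reads of a neighbouring gene enter the counts of these members was not tested. The library kit marks the strand, but no source used here states whether counting used it.

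The 3 members that are no subunits moved the other way or did not pass. UBP2 (AT1G04860, chromosome 1, positions 1369054 to 1373101, minus strand) was the only member called higher with heat in the mutant, with 15.4, 13.8 and 13.7 FPKM in heated mutant flowers and 8.25, 9.29 and 9.42 FPKM in unheated mutant flowers (log2 fold change 0.56, SE 0.09, adjusted p = 0.00110 by edgeR). UBP2 had, in the wild type, 10.98, 11.5 and 10.3 FPKM at 38 °C and 7.75, 9.11 and 7.73 FPKM at 22 °C, and in both genotypes the groups did not overlap. At 38 °C UBP2 was higher in the mutant than in the wild type (log2 fold change 0.35, SE 0.09, adjusted p = 0.0256 by edgeR), but the call was lost in 4 of 12 fits without a library (adjusted p up to 0.0925), namely without replicate 1 or 2 of the mutant or replicate 1 or 3 of the wild type at 38 °C, under scaling on reference genes, and without the 3 libraries that stood apart.

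IAA7 had 71.4, 95.3 and 77.2 FPKM in heated mutant flowers and 50.1, 28.7 and 60.8 FPKM in unheated mutant flowers (log2 fold change 0.70, SE 0.26, adjusted p = 0.0700 by edgeR). AXR3 had 6.51, 9.34 and 7.55 FPKM in heated mutant flowers and 6.20, 1.74 and 7.85 FPKM in unheated mutant flowers (log2 fold change 0.46, SE 0.43, adjusted p = 0.477 by edgeR). IAA7 was higher in every heated mutant library and AXR3 overlapped, and in both genes mutant replicate 2 at 22 °C, the library lowest in green tissue markers, was the lowest of the 12. IAA7 passed in the mutant without replicate 3 at 22 °C (edgeR adjusted p = 0.0319), and also with DESeq2, with limma and under scaling on reference genes.

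Genes that work with the proteasome were taken from lists of other pathway members. Among 7 regulators and assembly factors, 2 were called higher and 2 lower with heat in the mutant. PA200, an activator that caps the core, had -0.48 (SE 0.09, edgeR adjusted p = 0.00255), and AT1G67250, related to the core assembly chaperone UMP1 of yeast, had -0.50 (SE 0.12, adjusted p = 0.0100). AT3G53970, annotated as related to a proteasome inhibitor, rose (0.40, SE 0.08, edgeR adjusted p = 0.00522). The median of the list was -0.07.

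NAC053 and NAC2, which is also known as NAC078, are in the same list and were chosen for description after their values were seen. NAC053 had 14.5, 16.2 and 15.3 FPKM in heated mutant flowers and 10.6, 12.4 and 11.6 FPKM in unheated mutant flowers, against 23.9, 20.2 and 21.9 FPKM in the wild type at 38 °C and 10.6, 8.69 and 8.66 FPKM in the wild type at 22 °C. It was higher in every heated library in both genotypes. The log2 fold change with heat was 0.30 (SE 0.10, edgeR adjusted p = 0.0491) in the mutant and 1.15 (SE 0.10) in the wild type. NAC2 had -0.01 (SE 0.08, adjusted p = 0.954) in the mutant and 0.44 (SE 0.08) in the wild type.

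Among 10 genes for ubiquitin shuttles and CDC48, the ATPase that pulls ubiquitinated proteins out of complexes and membranes, 3 were called higher and 4 lower with heat in the mutant. AtCDC48B rose, with 12.5, 13.03 and 10.99 FPKM in heated mutant flowers and 4.18, 4.25 and 4.33 FPKM in unheated mutant flowers (log2 fold change 1.41, SE 0.14, adjusted p = 1.28e-04 by edgeR), while CDC48, at a far higher level, fell, with 140.2, 130.3 and 136 FPKM in heated and 177, 168 and 176 FPKM in unheated mutant flowers (log2 fold change -0.47, SE 0.06, adjusted p = 6.02e-04 by edgeR). The shuttle RAD23D fell as well (-0.34, SE 0.07, adjusted p = 0.00440).

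Of 7 genes for ubiquitin and its activating enzyme, 1 was called higher, UBA 2 (0.32, SE 0.08, edgeR adjusted p = 0.0105), and 1 lower, UBA1 (-0.21, SE 0.07, adjusted p = 0.0489), both activating enzymes. Of 4 deubiquitinases, 0 were higher and 1 was lower, UCH2 (-0.29, SE 0.10, edgeR adjusted p = 0.0489). Of 10 genes of the COP9 signalosome, a complex built like the proteasome lid that removes the ubiquitin-like modifier of cullins, 0 were higher and 1 was lower, CSN5A (-0.26, SE 0.08, edgeR adjusted p = 0.0470), with a median of -0.08. The lid had a median of -0.25, and no test of the difference between the complexes was run.

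Of the 4 genes for subunits or subunit-like proteins outside the annotation term, 1 was called higher with heat in the mutant and 0 lower. That gene was AT1G53780, listed as the second gene for RPT1, which shares the orthology entry of RPT1A. AT1G53780 had 79.8, 73.2 and 81.5 FPKM in heated mutant flowers and 51.9, 61.6 and 55.3 FPKM in unheated mutant flowers (log2 fold change 0.37, SE 0.07, adjusted p = 0.00431 by edgeR), with no overlap. It moved against RPT1A, which was called lower, and is not part of the sums given for the ATPases and for RPT1. RPN13 (0.15), AT4G15165, the second gene for PAC (0.61), and RPN12b (0.82) did not pass, and RPN12b was at 1.32 FPKM or lower in all libraries.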

How the data were processed

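RNA sequencing of polyadenylated RNA from 12 flower libraries was used. The authors deposited estimated counts (named counts in the file headers) as whole numbers whose totals differ between libraries, so they are not scaled to depth. The deposited FPKM values were computed by the authors, per the file headers. Per the submitters' processing notes, StringTie 1.3.4d, HISAT2 2.0.4, cutadapt 1.9 and the TAIR10 build were used, with no roles stated. No source used here says how the counts were made. Of the nonzero values up to 20 in genes with a single listed transcript, 47.2% are multiples of 4. The number of fragments behind a count is therefore unknown, and no counting interval is given. Members and lists were chosen with earlier results of these data known. The main test was that of edgeR 4.0.16 in R 4.3.3 (trimmed mean of M-values scaling, filterByExpr with a minimum count of 10, quasi-likelihood test over 12 libraries, 8 residual degrees of freedom, two-sided, Benjamini-Hochberg over all genes tested). DESeq2 1.42.0 and limma 3.58.1 on log2(FPKM + 1) were alternatives, as were another pseudocount, filter or scaling, a replicate block and left-out libraries. The scripts were tested on simulated data. Named members are the highest and lowest of each part of the complex for heat in the mutant, members called higher with heat or called between genotypes, and the 4 split pairs with the smallest p. Positions of genes were taken from the deposited table. Symbols and upstream windows come from RefSeq (TAIR10.1), which gave a symbol for 44 of the 55 members.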

Additional observations from a re-analysis of the deposited data

Results flagged for a closer look

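The heat responses of NAC053 and HSP101 differed between the genotypes by the interaction test of edgeR. NAC053 had a difference, mutant minus wild type, of -0.84 on the log2 scale (SE 0.14, adjusted p = 0.0231), and it passed in 8 of the 12 fits that left out a library (adjusted p up to 0.0749). HSP101, with 21.9, 18.8 and 16.0 FPKM in heated mutant flowers and 6.71, 7.83 and 6.004 FPKM in unheated ones, against 60.6, 56.1 and 50.2 FPKM in the wild type at 38 °C and 9.89, 9.75 and 9.10 FPKM in the wild type at 22 °C, had a difference of -1.09 (SE 0.17, adjusted p = 0.0172) and passed in 10 of the 12 fits (adjusted p up to 0.0589). Both genes were higher in every heated library of both genotypes. No member of the complex gave a difference that passed with edgeR.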

How the results depend on the processing

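Counts here are over all 55 members, and a change is a log2 fold change. Under scaling on reference genes, 8 members were higher and 0 lower with heat in the mutant (median 0.028, a reversed sign), where 33.6% and 2.85% of all genes were. In the wild type 7 were higher and 7 lower (median -0.0094), where 31.6% and 4.53% of all genes were. At 38 °C, 0 were higher in the mutant than in the wild type, where 2.42% of all genes were. The genotype median at 22 °C under this scaling was -0.0044, against 0.05. The changes of AT1G04810 (0.30), MEE34 (0.20), PAD2 (0.12), PBD1 (0.29) and RPN1B (0.22) turned positive with heat in the mutant. With limma on FPKM, at all 3 combinations of pseudocount and filter, 2 members were higher in the mutant (median -0.20) and 3 in the wild type (median -0.23). Of all genes, limma called 13.7% to 19.1% higher with heat in the mutant and 15.6% to 20.9% in the wild type. AT1G04810 stood at 0.069 to 0.073 and PBD1 at 0.061, and without a filter 26 members were lower in the wild type, where 9.1% of all genes were. DESeq2 called 2 members higher in the mutant and 3 in the wild type with heat, where it called 16.6% and 19.7% of all genes. It called 4 higher and 1 lower between genotypes at 38 °C, where it called 7.6% and 9.48% of all genes. For the difference it called 1 higher, where it called 2.73% of all genes. In the wild type 2 were higher with DESeq2 size factors in edgeR, 2 with only the 2 groups compared (median -0.27) and 3 with counts divided by 4. Of all genes, 16.1%, 17.4% and 18.6% were higher in these fits. Without the 3 libraries that stood apart, 2 members were higher with heat in the mutant, 4 in the wild type and 1 in the mutant at 38 °C, where 8.46%, 16.1% and 3.17% of all genes were. RPT5B stood at -0.044 in that fit. The cause of these shifts was not tested.

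Leaving out each library in turn gave 24 to 34 members lower and 1 to 2 higher with heat in the mutant (median -0.36 to -0.24), and 26 to 40 lower and 0 to 2 higher in the wild type (median -0.37 to -0.26). Over these fits, 9.07% to 13.2% of all genes were lower and 7.66% to 11.8% higher with heat in the mutant. In the wild type 10.7% to 17.0% were lower and 10.6% to 17.0% higher. The lowest counts came without mutant replicate 2 at 22 °C and without wild-type replicate 3 at 22 °C. Of the 35 members called lower in the mutant, 24 were called in every such fit and 11 lost the call in at least 1. Between genotypes the median ran from 0.031 to 0.11 at 22 °C and from 0.03 to 0.10 at 38 °C, and that of the difference from -0.01 to 0.07. At 38 °C, 1 to 3 members were higher in the mutant, where 1.78% to 5.54% of all genes were. Single genes crossed 0 in the mutant: PBC2 ran from -0.032 to 0.15, PBD1 from -0.094 to 0.024, RPN5B from -0.032 to 0.091 and RPT5B from -0.014 to 0.075.

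With the replicate number as a block, 30 members were lower with heat in the mutant and 35 in the wild type, with 1 higher in each. Libraries with the same number did not deviate together (r between -0.28 and 0.27 over 18 pairs, and between -0.22 and 0.23 over 36 pairs with different numbers), so the numbers were not taken to pair the samples. The depth in fragments is unknown, so how far counting error limits the smaller changes was not tested.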
